A study of Mus musculus with 38 samples.

Results

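The spleens of 38 BXD strains fall into a group of 20 and a group of 18 by the signal of 1 array probe for Necap2, a gene of mouse chromosome 4. BXD strains are recombinant inbred lines from a cross of C57BL/6 and DBA/2 mice, so each strain is homozygous almost everywhere for an allele of one of the parents, and neighbouring genes on a chromosome mostly carry alleles of the same parent. Each strain was measured on 1 Illumina Mouse-6 v1.1 array with RNA pooled from the spleens of 2 mice of one sex, aged 8 to 12 weeks and untreated as far as the labels tell. The log2 intensities of the probe ILMN_2774882 were put in order over all 38 arrays, and the groups were chosen by dividing them at the widest gap between neighbours, which gave 20 arrays of high Necap2 signal (high-Necap2 arrays) and 18 of low Necap2 signal (low-Necap2 arrays). The high-Necap2 arrays hold 19 pools labelled male and 1 labelled female, and the low-Necap2 arrays hold 16 labelled male and 2 labelled female. No parental array is used here, so which parent carries the high signal is not known from these values, and each strain is 1 pool, so a strain is the unit of replication.

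NECAP proteins bind the adaptor complexes AP1 and AP2, which gather cargo into clathrin-coated vesicles. Necap1 is best known for its part in AP2-dependent endocytosis, much of it at nerve terminals, while NECAP2 was linked, in human cell lines, to the AP1-dependent return of receptors from early endosomes to the cell surface. In spleen, where B cells, T cells, macrophages and red cell precursors lie side by side, clathrin coats serve the uptake of antigen receptors and of the transferrin receptor.

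The high-Necap2 arrays had Necap2 intensities with a lowest value of 12.18, a median of 12.74 and a highest of 13.11 on the normalized log2 scale, against 8.63, 9.07 and 9.40 on the low-Necap2 arrays. No array lay between 9.40 (BXD32) and 12.18 (BXD98), a gap of 2.77, and the next widest gap between neighbours was 0.345. The means were 12.75 ± 0.21 (SD, n = 20) on high-Necap2 arrays and 9.04 ± 0.18 (SD, n = 18) on low-Necap2 arrays, a difference of 3.71 or 13.1-fold. The groups were chosen by these values, which are given as a description with no test. In the deposited intensities, before any normalization, the probe ran from 4434 to 9722 on high-Necap2 arrays and from 427 to 838 on low-Necap2 arrays, and all 38 arrays fell on the same side in the deposited intensities and in the authors' processed values. The probe was detected on all 38 arrays, so the low-Necap2 arrays had a measured signal and not an empty spot. It is the only probe annotated to Necap2, and a sequence variant under the probe cannot be told apart here from a different amount of transcript. Whether any probe with no gene symbol also binds Necap2 was not tested.

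**Figure D1:**
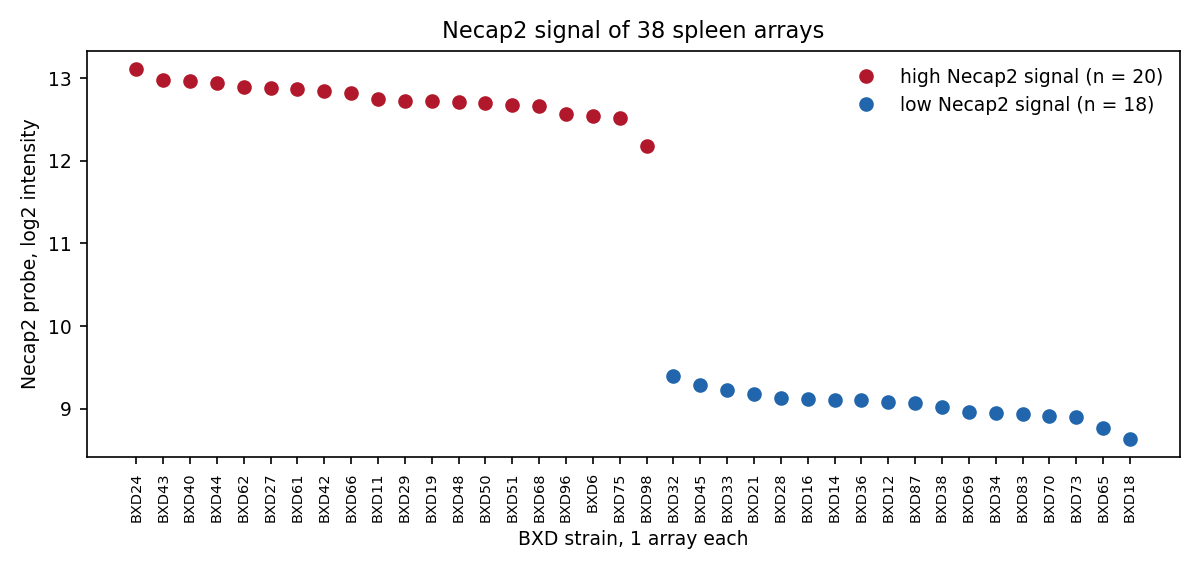
Log2 intensity of the Necap2 probe (y axis) on each of the 38 arrays (x axis, 1 point per strain, in order of signal). The 20 high-Necap2 arrays (red) lie at 12.18 or above and the 18 low-Necap2 arrays (blue) at 9.40 or below, with no array in the gap.

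As a whole, 13791 to 15732 of 34492 probes were detected per array, and the correlation between arrays ran from 0.919 to 0.982. Genes of spleen cells had high signals in both groups. The mean log2 intensity of 18 measured B cell genes had a median of 11.19 on high-Necap2 arrays and 11.14 on low-Necap2 arrays. That of 14 macrophage genes had medians of 11.60 and 11.58. Pancreas transcripts were also present, in amounts that differed widely between arrays. The mean of 23 measured pancreas genes ran from 5.60 to 15.03 on high-Necap2 and from 5.63 to 15.14 on low-Necap2 arrays. On some arrays, such as that of BXD28 at 15.14, it lay above both of these list means. Of the 38 arrays, strains with a BXD number up to 42, which come from earlier breeding rounds of the panel, made up 8 of 20 high-Necap2 and 11 of 18 low-Necap2 arrays (Fisher's exact test, two-sided, p = 0.330, adjusted over 3 comparisons 0.495). The upper signal level of H2-Ab1, a class II gene of the major histocompatibility complex, was present on 11 of 20 high-Necap2 and 5 of 18 low-Necap2 arrays (Fisher's exact test, two-sided, p = 0.112, adjusted 0.336). H2-Ab1 was not the only such gene with unequal shares. With no test, the upper level was present on 13 high-Necap2 and 6 low-Necap2 arrays for Slpi and on 9 and 13 for Fcer1g. For Serpina1b it was 13 and 8, for Rpl29 13 and 10, for Glrx 12 and 9 and for Psmb6 9 and 10.

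Differences between high-Necap2 and low-Necap2 arrays made up a larger share of the probes of chromosome 4 than of any other chromosome, and they reached both ways in direction. Of 17582 probes tested with limma, with Benjamini-Hochberg adjustment over all of them and a threshold of 0.05, 208 were called (1.18%), 100 higher (0.569%) and 108 lower (0.614%) on high-Necap2 arrays. Of these, 41 of 720 probes of chromosome 4 genes were called (5.69%), 31 higher (4.31%) and 10 lower (1.39%). Genes of other chromosomes gave 109 of 11597 (0.94%), 42 higher (0.362%) and 67 lower (0.578%), and 58 of 5265 probes with no chromosome in the annotation were called (1.1%). No other chromosome exceeded 1.86%, the share of the X chromosome. The median difference over all tested probes was 0.01 and the median absolute difference 0.08 on the log2 scale.

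With both sides pooled, the share of called probes was highest next to Necap2 in the order of protein-coding genes along the chromosome and came down to that of all probes far from it, but the sides differed. Among probes of genes up to 10 genes away on either side, 4 of 11 were called (36.4%), followed by 5 of 21 (23.8%) at over 10 and up to 25 genes and 5 of 21 (23.8%) at over 25 and up to 50 genes. At over 50 and up to 100 genes the share was 4 of 46 (8.7%), at over 100 and up to 200 genes 14 of 131 (10.7%), and at over 200 and up to 400 genes 5 of 140 (3.57%). Beyond 400 genes it was 4 of 342 (1.17%), next to the 1.18% over all probes. The 4 calls within 10 genes were all among 8 probes of the centromeric side. The telomeric side had 0 of 3 there, 2 of 11 at over 10 and up to 25 genes and 0 of 6 at over 25 and up to 50. Its highest share, 3 of 11 (27.3%), lay at over 50 and up to 100 genes. Necap2 lies toward the telomeric end, with 1089 of the 1328 coding genes of the chromosome on its centromeric side and 238 on its telomeric side.

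**Figure D2:**
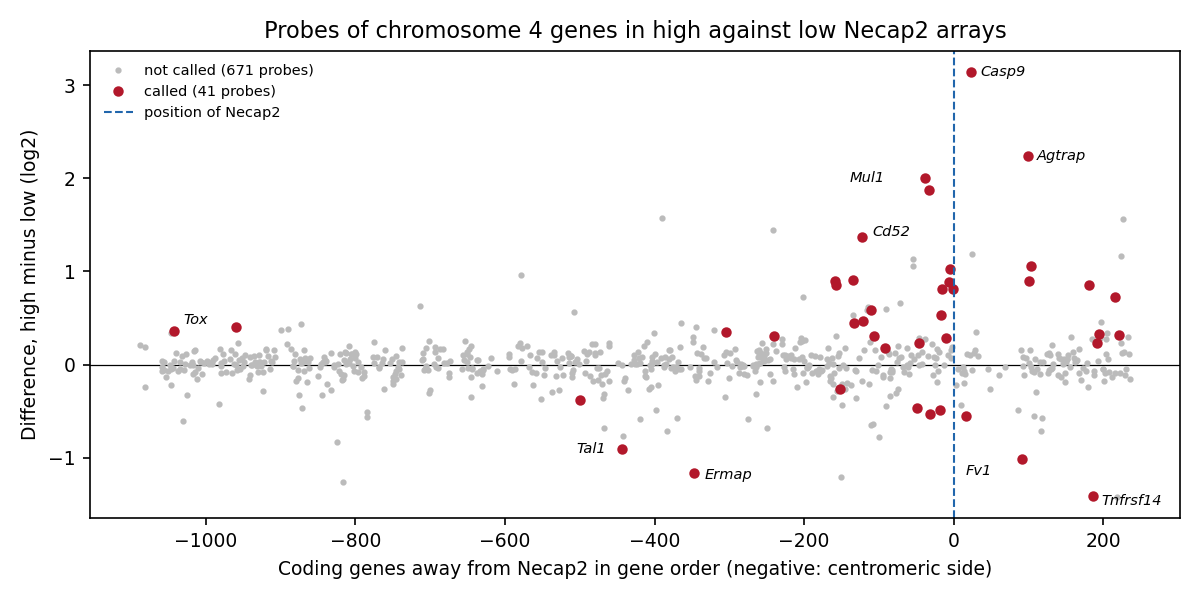
Difference between high-Necap2 and low-Necap2 arrays (log2, y axis) for probes of chromosome 4 genes, by their steps from Necap2 in the order of coding genes (x axis, negative on the centromeric side). Called probes (red) gather on both sides of the dashed line that marks Necap2, with Casp9 at 3.14 the highest and Tnfrsf14 at -1.41 the lowest of the called ones.

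Casp9, the initiator caspase of the mitochondrial pathway of apoptosis, was the named gene most like Necap2. It lies 23 coding genes to the telomeric side. Its log2 intensity had a lowest value of 8.42, a median of 8.57 and a highest of 8.81 on high-Necap2 arrays, against 4.73, 5.33 and 8.53 on low-Necap2 arrays. All high-Necap2 arrays and 1 low-Necap2 array, that of BXD87 at 8.53, lay at the upper level, and the other 17 low-Necap2 arrays lay at 5.75 or below. The difference was 3.14 ± 0.18 (SE, adjusted p = 5.03e-16 by limma), with the probe detected on 20 of 20 high-Necap2 and 3 of 18 low-Necap2 arrays. Its size rests on the background treatment: it was 2.00 without background correction and 0.93 in the authors' processed values, in which low signals are compressed. With the detection p-values as deposited, Casp9 was detected on too few arrays to be tested.

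Padi2 and Padi1 encode peptidylarginine deiminases, enzymes that turn arginine in proteins into citrulline, and sit next to each other at 5 and 6 genes to the centromeric side of Necap2. Padi2 had a lowest value of 5.21, a median of 5.94 and a highest of 6.38 on high-Necap2 arrays, against 4.51, 4.90 and 5.36 on low-Necap2 arrays. Only the lowest of the high-Necap2 arrays overlapped the low-Necap2 arrays. Padi2 was detected on 18 of 20 high-Necap2 arrays and was not well above background on any of the 18 low-Necap2 arrays, so it was at least 1.24-fold higher on high-Necap2 arrays, where the bound sets the mean of the high-Necap2 arrays against the dimmest detected signals of each low-Necap2 array. The bound holds for the background correction used here. The Padi2 difference itself was 0.14 (1.10-fold) in the authors' processed values and 0.05 (1.04-fold) with the detection p-values as deposited. Both are smaller than the bound, and both were called. The measured means were 5.96 ± 0.29 and 4.93 ± 0.21 (SD, adjusted p = 2.22e-11 by limma). Padi1 averaged 6.50 ± 0.39 on high-Necap2 arrays and 5.61 ± 0.26 on low-Necap2 arrays (SD), a difference of 0.89 ± 0.11 (SE, adjusted p = 1.78e-06). It was detected on 20 of 20 high-Necap2 arrays and 11 of 18 low-Necap2 arrays, and its difference was 0.15 in the authors' processed values and 0.06 with the deposited detection p-values. Sizes of differences on chromosome 4 depended on the scale in general. In the authors' processed values 29 of the 41 called probes had a difference more than 1.5 times smaller, and with the deposited detection p-values 23 of the 35 still tested. None changed sign, and 40 and 29 were still called.

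The promoters of these 3 genes, which had the smallest adjusted p of the linked genes, are given below from RefSeq (GRCm38.p6, the genome of C57BL/6J), each from 250 bases before to 50 bases after the annotated start, 5′ to 3′ on the strand of the gene. Capitals mark matches, on either strand, to the core of the CCAAT box, to GGGCGG (the core of the GC box) or to the letters TATAAA of the TATA box, and matches may overlap.
Casp9 (chr4:141793362-141793661, plus strand): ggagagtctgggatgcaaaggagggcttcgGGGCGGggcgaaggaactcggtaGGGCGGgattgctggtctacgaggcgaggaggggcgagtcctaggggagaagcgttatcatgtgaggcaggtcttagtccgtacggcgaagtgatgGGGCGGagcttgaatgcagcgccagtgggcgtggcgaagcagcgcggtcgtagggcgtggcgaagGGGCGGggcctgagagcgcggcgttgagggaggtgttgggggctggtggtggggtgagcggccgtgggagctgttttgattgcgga
Padi2 (chr4:140906110-140906409, plus strand): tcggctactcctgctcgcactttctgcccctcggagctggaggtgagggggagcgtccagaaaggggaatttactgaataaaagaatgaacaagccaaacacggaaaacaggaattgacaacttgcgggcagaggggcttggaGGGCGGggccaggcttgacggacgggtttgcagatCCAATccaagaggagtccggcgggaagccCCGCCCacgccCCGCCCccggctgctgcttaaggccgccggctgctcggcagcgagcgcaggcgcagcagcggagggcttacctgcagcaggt
Padi1 (chr4:140845729-140846028, minus strand): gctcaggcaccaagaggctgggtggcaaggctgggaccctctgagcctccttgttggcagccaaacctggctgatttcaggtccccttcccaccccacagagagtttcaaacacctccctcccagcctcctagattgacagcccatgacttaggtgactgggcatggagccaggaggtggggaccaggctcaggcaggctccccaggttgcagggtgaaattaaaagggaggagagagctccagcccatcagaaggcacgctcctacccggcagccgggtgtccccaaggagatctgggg
The Casp9 window holds 4 matches to GGGCGG and 28 CpG dinucleotides, and the Padi2 window 3 matches to GGGCGG, 1 to CCAAT and 22 CpG dinucleotides. The Padi1 window holds 3 CpG dinucleotides and none of these letters. Among 32851 mouse promoter windows of the same length, 35.7% hold GGGCGG, 37.4% CCAAT and 13.6% TATAAA, and the median is 7 CpG dinucleotides. The windows show the reference strain and not the alleles of the BXD strains.

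Nearer still, Crocc, the gene of the ciliary rootlet protein rootletin and the next coding gene to the centromeric side, averaged 6.13 ± 0.33 on high-Necap2 arrays and 5.32 ± 0.33 on low-Necap2 arrays (SD, difference 0.81 ± 0.11 SE, adjusted p = 8.01e-06). It was detected on 18 of 20 high-Necap2 and 2 of 18 low-Necap2 arrays, so the low mean lies near background. The difference was 0.11 in the authors' processed values and 0.05 with the deposited detection p-values. Aldh4a1, a mitochondrial enzyme of proline breakdown 16 genes away, had a lowest value of 8.997, a median of 9.96 and a highest of 10.36 on high-Necap2 arrays, against 8.71, 9.12 and 10.24 on low-Necap2 arrays (difference 0.81 ± 0.11 SE, adjusted p = 8.01e-06). The groups overlapped through 3 strains, BXD50 and BXD61 among the high-Necap2 arrays and BXD73 among the low-Necap2 arrays, and the other 35 arrays kept to the level of their Necap2 group. Iffo2, its neighbour at 17 genes and a member of an intermediate filament family, was higher by 0.53 ± 0.07 (SE, adjusted p = 3.10e-05).

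Not every neighbour moved. Of the 12 measured genes nearest to Necap2, 6 on each side, 3 were called, all of them on the centromeric side (Crocc, Padi2 and Padi1). Between Crocc and Padi2, the differences were 0.19 ± 0.07 (SE) for Mfap2, a microfibril protein, 0.16 ± 0.06 for Atp13a2, a lysosomal polyamine transporter, and 0.07 ± 0.06 for Sdhb, a subunit of succinate dehydrogenase, with adjusted p from 0.126 to 0.651. On the telomeric side Fbxo42, an F-box protein, differed by -0.22 ± 0.06 (adjusted p = 0.0687) and Hspb7, a small heat shock protein, by -0.44 ± 0.12 (adjusted p = 0.0619). Epha2, Srarp, Zbtb17 and both probes of Spen, a large transcriptional corepressor, had differences between -0.19 and -0.03 with adjusted p of 0.503 or more.

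Mul1, a ubiquitin ligase of the outer mitochondrial membrane 39 genes to the centromeric side, and Pla2g2d, a secreted phospholipase of dendritic cells in lymphoid tissue at 33 genes, both lay at 2 levels. Mul1 had a lowest value of 6.74, a median of 9.80 and a highest of 10.03 on high-Necap2 arrays, against 6.53, 7.22 and 9.79 on low-Necap2 arrays (difference 2.00 ± 0.31 SE, adjusted p = 2.28e-04). Pla2g2d had 5.72, 8.57 and 8.95 on high-Necap2 arrays, against 5.12, 6.18 and 8.97 on low-Necap2 arrays (difference 1.87 ± 0.29 SE, adjusted p = 2.51e-04). In the authors' processed values the differences were 1.15 for Mul1 and 0.62 for Pla2g2d. With the deposited detection p-values they were 1.01 and 0.34. For both genes the same 5 strains lay at the level opposite to their Necap2 group: BXD50, BXD51, BXD61 and BXD98 of the high-Necap2 arrays and BXD73 of the low-Necap2 arrays. BXD50, BXD61 and BXD73 among them are the strains that also stood at the opposite level for Aldh4a1. Pla2g5, another secreted phospholipase next to Pla2g2d, was lower on high-Necap2 arrays by a difference of -0.53 ± 0.12 (SE, adjusted p = 0.0240), so neighbours here moved in opposite directions.

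On the telomeric side Agtrap, which binds the angiotensin receptor and promotes its internalization, lies 99 genes away and had a lowest value of 7.14, a median of 10.25 and a highest of 10.62 on high-Necap2 arrays, against 5.94, 7.15 and 10.41 on low-Necap2 arrays (difference 2.24 ± 0.38 SE, adjusted p = 9.21e-04). Agtrap differed by 1.31 in the authors' processed values and by 1.26 with the deposited detection p-values. Draxin, a secreted axon guidance protein at 100 genes, was higher by 0.90 ± 0.15 (SE, adjusted p = 4.78e-04). It was detected on 18 of 20 high-Necap2 and 4 of 18 low-Necap2 arrays. Its difference was 0.13 in the authors' processed values and 0.05 with the deposited detection p-values. Fv1, an endogenous restriction factor against murine leukaemia viruses at 91 genes, was lower, with a difference of -1.02 ± 0.19 (SE, adjusted p = 0.00344). Fv1 was detected on 2 of 20 high-Necap2 and 14 of 18 low-Necap2 arrays, and its difference was -0.15 and -0.06 on these other scales. All 3 genes shared the same 6 strains at the opposite level: BXD27 and BXD42 of the high-Necap2 arrays, and BXD33, BXD38, BXD65 and BXD87 of the low-Necap2 arrays. BXD87 is also the single strain at which Casp9 left the Necap2 pattern. Fbxo44, an F-box gene at 103 genes, was higher by 1.06 ± 0.18 (SE, adjusted p = 9.21e-04) with 1 probe, while its other probe gave a difference of -0.03 (adjusted p = 0.940), so its probes disagree. The first was detected on 19 of 20 high-Necap2 and 4 of 18 low-Necap2 arrays. Its difference was 0.16 in the authors' processed values and 0.06 with the deposited detection p-values.

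Further out, Tnfrsf14, a receptor of the tumour necrosis factor family (HVEM) that binds BTLA on lymphocytes, lies 186 genes to the telomeric side. It had a lowest value of 6.26, a median of 6.99 and a highest of 9.65 on high-Necap2 arrays, against 6.87, 9.06 and 9.72 on low-Necap2 arrays (difference -1.41 ± 0.30 SE, adjusted p = 0.0128). Tnfrsf14 differed by -0.67 in the authors' processed values and by -0.47 with the deposited detection p-values. At its widest gap 30 of 38 arrays lay on the side of their Necap2 group, with Tnfrsf14 low where Necap2 was high. To the centromeric side Cd52, a surface glycopeptide of lymphocytes at 123 genes, had 9.80, 12.82 and 13.73 on high-Necap2 arrays, against 8.27, 10.88 and 13.25 on low-Necap2 arrays (difference 1.37 ± 0.35 SE, adjusted p = 0.0430). Eya3, a phosphatase and transcriptional coactivator at 159 genes, and Gpn2, a small GTPase at 134 genes, were higher by 0.89 ± 0.22 and 0.91 ± 0.24 (SE, adjusted p = 0.0324 and 0.0444). In the authors' processed values Cd52, Eya3 and Gpn2 differed by 1.39, 0.52 and 0.76. With the deposited detection p-values they differed by 1.51, 0.41 and 0.98 (adjusted p = 0.0560, 0.0574 and 0.0489 by limma). Cd52 and Eya3 were thus not called there. Over 20 alternative settings, the call was lost in 13 for Cd52, 10 for Eya3 and 10 for Gpn2. Cd52, Eya3 and Gpn2 shared the same 9 strains at the opposite level, and so did Fgr, a Src family kinase of myeloid cells at 151 genes, whose difference of -1.21 ± 0.38 (SE) had an adjusted p of 0.0863.

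**Figure D3:**
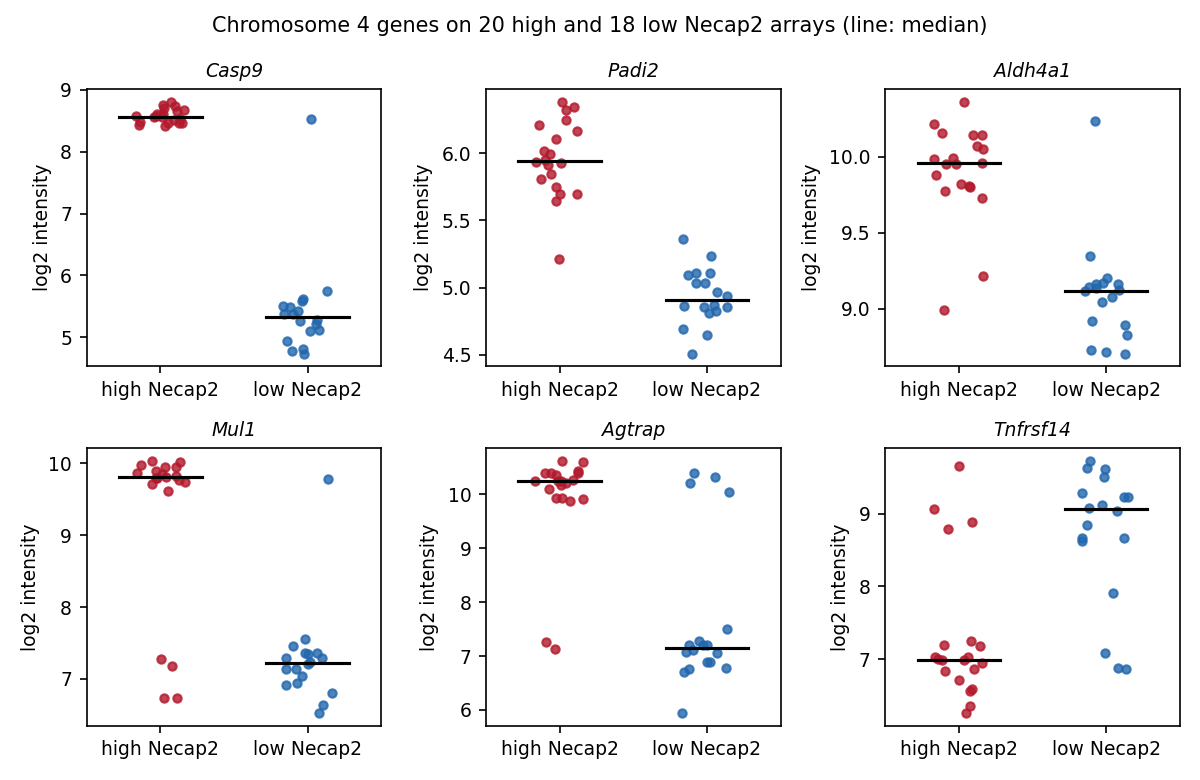
Log2 intensity (y axis) of 6 chromosome 4 genes on the 20 high-Necap2 arrays (left, red) and the 18 low-Necap2 arrays (right, blue), 1 point per array, with the median as a line. Casp9 has 1 low-Necap2 array at the upper level, Mul1 has 5 arrays at the level opposite to their group and Agtrap 6, while Tnfrsf14 runs the other way.

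The strains that left the Necap2 pattern mostly changed in steps along the chromosome. A gene was counted as lying at 2 levels where the widest gap between neighbouring arrays had at least 5 arrays on each side, was at least 0.25 wide and at least 2 times the pooled SD within the levels; 30 probes of chromosome 4 genes other than Necap2 met this. Counting the arrays on the side of their Necap2 group, Casp9 had 37 of 38, Aldh4a1 35, and Mul1 and Pla2g2d 33. On the telomeric side Fv1, Agtrap and Draxin had 32, Tnfrsf14 30, Mxra8, an adhesion molecule of the immunoglobulin superfamily, 29, and Cptp, a lipid transfer protein, B3galt6, a glycosyltransferase, and Tnfrsf4 (OX40, a costimulatory receptor of T cells) 28. Tnfrsf14 and Mxra8 broke the order of steps, and their gaps, 0.716 and 0.405, were just over 2 times the within-level SDs of 0.357 and 0.202. BXD51 and BXD73 stood at the opposite level at Tnfrsf14 but at none of the other telomeric genes named here. BXD27 matched at Tnfrsf14 but not at Draxin or Mxra8, and BXD38 matched at Mxra8 but not at Tnfrsf14 or Cptp. On the centromeric side Eya3, Fgr, Gpn2 and Cd52 had 29, Dcdc2b and Zmym6 28, Cap1, an actin-binding protein, 26 and Kif2c, a mitotic kinesin, 25. The 10 other probes had 20 to 24, where 19 of 38 is the lowest count this way of matching allows; 9 of them lie farther out, and Hyi has no place in the gene order used. Outside chromosome 4, no probe of a named gene with 2 levels matched the Necap2 side on 35 or more arrays.

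**Figure D4:**
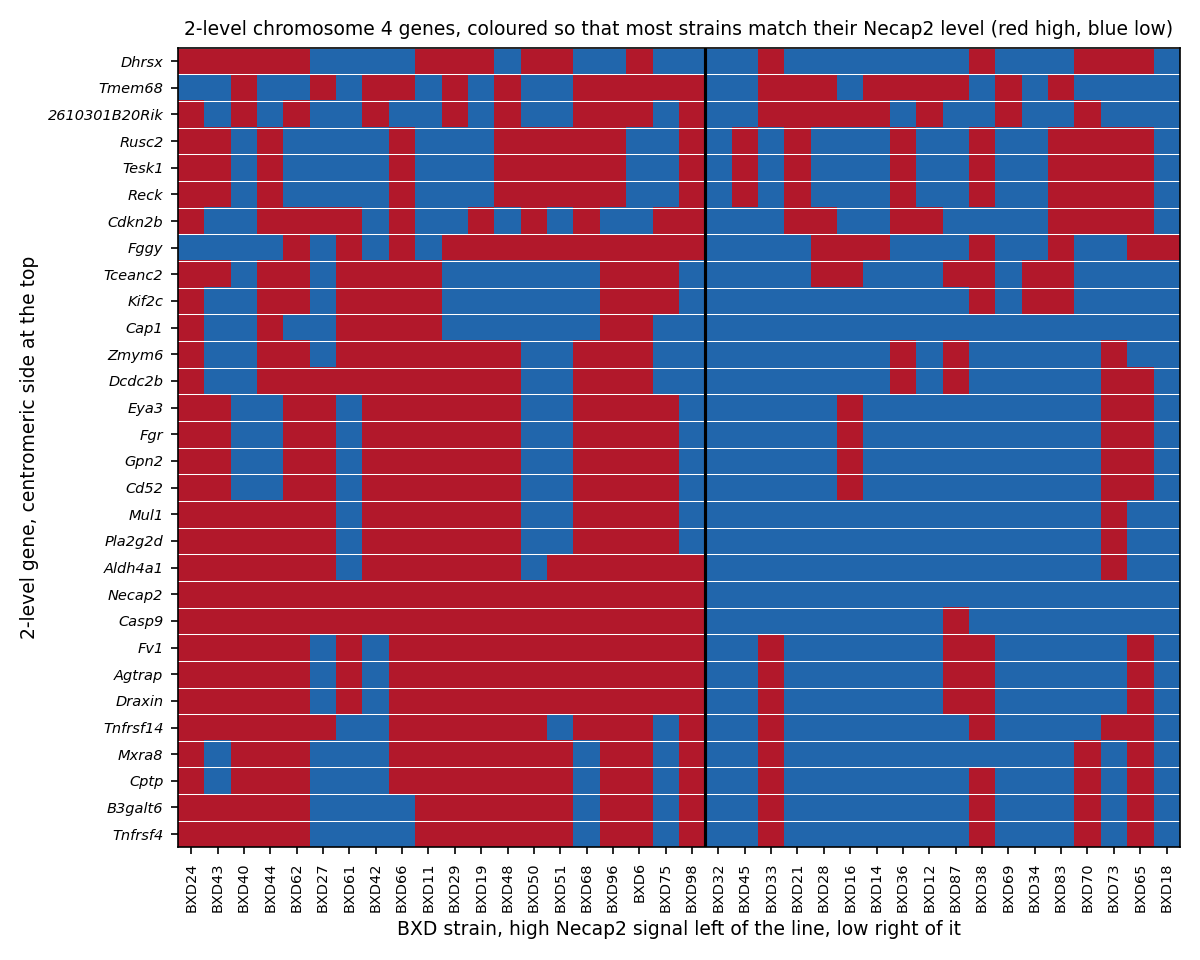
Each row is a chromosome 4 gene with 2 levels, in gene order from the centromeric side (top), and each column a strain, with high-Necap2 strains left of the black line and low-Necap2 strains right of it. Colours are set so that most strains match their Necap2 level; the mismatched strains are 1 at Casp9 and 3 at Aldh4a1, 5 and 6 at the next genes on either side, and mismatches become more with distance.

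A probe with no gene symbol in the annotation, ILMN_2702069, matched the split fully. It lay between 8.88 and 10.004 with a median of 9.56 on high-Necap2 arrays, against 7.04 to 7.95 with a median of 7.68 on low-Necap2 arrays (difference 1.88 ± 0.09 SE, adjusted p = 5.54e-18 by limma). It was the only probe of 17582 whose groups did not overlap (0.00569%). By correlation with the Necap2 probe over the 38 arrays, given as a description, the most alike named genes were Casp9 (0.94), Padi2 (0.90), Padi1 (0.81), Aldh4a1 (0.77) and Crocc (0.75), and the most opposite were Lyar (-0.70), Emc1 (-0.70), Tmem82 (-0.66), Fv1 (-0.64) and Alpl (-0.64). Within the 20 high-Necap2 and the 18 low-Necap2 arrays, Padi2 correlated with Necap2 at -0.08 and 0.09 and Casp9 at -0.00 and -0.07. Crocc correlated at -0.68 and -0.12 and Emc1 at -0.47 and -0.17. The other 6 of these genes correlated between -0.12 and 0.26 within the high-Necap2 arrays and between -0.16 and 0.10 within the low-Necap2 arrays.

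Among the other called genes of chromosome 4, Emc1, of the endoplasmic reticulum membrane complex (19 genes away), Tmem82 (16 genes) and Alpl, tissue-nonspecific alkaline phosphatase (49 genes), were lower, with differences of -0.49, -0.55 and -0.47 on the log2 scale (adjusted p from 0.00272 to 0.00965). In the authors' processed values these were -0.07, -0.09 and -0.13. With the deposited detection p-values Tmem82 differed by -0.04 and Alpl by -0.07, and Emc1 was not tested. Mxra8 and Faap20, of the Fanconi anaemia core complex, were higher by 0.73 and 0.33 at 215 and 194 genes to the telomeric side (adjusted p = 0.0151 and 0.0162). Prdm16, a transcriptional regulator of brown fat and of blood stem cells at 181 genes to the telomeric side, and Xkr8, a phospholipid scramblase of apoptotic cells at 158 genes to the centromeric side, were named after their values were seen. They were higher by 0.86 ± 0.19 and 0.85 ± 0.20 (SE, adjusted p = 0.0178 and 0.0268), and Prdm16 was detected on 16 of 20 high-Necap2 and 4 of 18 low-Necap2 arrays. Their differences were 0.13 and 0.24 in the authors' processed values. With the deposited detection p-values Xkr8 differed by 0.11 and Prdm16 was not tested. Far to the centromeric side, Tox, a nuclear factor needed for T cell development (1042 genes away), was higher by 0.36 ± 0.07 (SE, adjusted p = 0.00880), and Ndc1, a nuclear pore protein (500 genes away), was lower, with a difference of -0.38 ± 0.08 (SE, adjusted p = 0.0149). Of 40 measured immune genes listed for chromosome 4, 4 were higher (Casp9, Padi2, Pla2g2d and Cd52) and 1 lower (Tnfrsf14), beside a called share of 5.69% of chromosome 4 probes and 1.32% of named genes. Their median difference was 0.08 beside 0.02 over 11166 named genes.

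Of the partners of Necap2 in vesicle traffic, none of 15 measured genes of the AP1 and AP2 adaptors, clathrin and Necap1 was called. They had differences between -0.14 and 0.25 and a median of -0.01. Necap1, on chromosome 6, averaged 9.21 ± 0.30 on high-Necap2 arrays and 9.03 ± 0.19 on low-Necap2 arrays (SD, difference 0.18 ± 0.08 SE, adjusted p = 0.268). Ap2m1, the cargo-binding subunit of AP2, differed by 0.00 ± 0.04 (SE) and Ap1m2 by 0.25 ± 0.10 (SE, adjusted p = 0.195). None of 26 genes of coat assembly, scission and uncoating and none of 31 genes of endosomal recycling was called either, with medians of 0.00 and 0.01. The share called over 11166 named genes was 1.32% (0.645% higher and 0.672% lower), so a list of this size holds few or no calls at the background rate.

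Among the gene lists, the called members of the T cell list were all higher on high-Necap2 arrays, and the called members of the erythroid and cell cycle lists all lower. Most members of each list did not pass the test. The named genes with the smallest adjusted p outside chromosome 4 were led by Lyar, a nucleolar protein of ribosome biogenesis, with 8.34 ± 0.15 on high-Necap2 arrays and 8.68 ± 0.20 on low-Necap2 arrays (SD, difference -0.35 ± 0.06 SE, adjusted p = 9.21e-04). Paics, an enzyme of purine synthesis, differed by -0.36 ± 0.07 (adjusted p = 0.00633), Tacc3, a mitotic spindle protein, by -0.54 ± 0.11 (adjusted p = 0.00992) and Gstm5, a glutathione transferase, by -0.76 ± 0.16 (adjusted p = 0.0128). Nup85, of the nuclear pore, and Timm8a1, of mitochondrial protein import, were lower, with differences of -0.33 and -0.31. Higher were Slc52a3, a riboflavin transporter, by 0.34, Fscn1, an actin-bundling protein, by 0.52, and Prox1, a homeobox factor of lymphatic endothelium, by 0.35 (adjusted p from 0.00644 to 0.0128). Erfe, the erythroblast hormone erythroferrone, averaged 4.78 on high-Necap2 arrays and 5.50 on low-Necap2 arrays (adjusted p = 0.0130); it was not well above background on any of the 20 high-Necap2 arrays, and no fold is given.

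Of 16 measured T cell genes, 6 were higher and none lower, beside 0.645% higher over 11166 named genes. The median difference of the list was 0.35, beside 0.02 over those genes. Cd28, the costimulatory receptor, had a lowest value of 8.35, a median of 8.94 and a highest of 9.34 on high-Necap2 arrays, against 8.17, 8.44 and 8.94 on low-Necap2 arrays (difference 0.42 ± 0.08 SE, adjusted p = 0.00644). The groups overlapped between 8.35 and 8.94. Cd6, a coreceptor of the T cell surface, was higher by 0.41, the adaptor Trat1 by 0.38, the transcription factor Bcl11b by 0.39, the kinase Zap70 by 0.35 and Cd5 by 0.37 (adjusted p from 0.00732 to 0.0369). Over 20 alternative settings, the call was lost in 4 for Cd6, 5 for Cd28, 8 for Trat1, 9 for Bcl11b, 10 for Zap70 and 12 for Cd5. Cd3d and Cd3e, of the T cell receptor complex, differed by 0.37 and 0.32 with adjusted p of 0.0736 and 0.127.

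Of 16 measured erythroid genes, 6 were lower and none higher, beside 0.672% lower over 11166 named genes, and the median difference of the list was -0.84. Car1, the red cell carbonic anhydrase, had a lowest value of 10.43, a median of 12.40 and a highest of 14.22 on high-Necap2 arrays, against 12.53, 13.47 and 14.91 on low-Necap2 arrays (difference -1.01 ± 0.23 SE, adjusted p = 0.0257). Epor, the erythropoietin receptor, differed by -0.90 and Kel, the Kell blood group protein, by -1.25 (adjusted p = 0.0331 and 0.0464). Rhag, of the Rh complex, differed by -1.20 (adjusted p = 0.0435). Tal1, an erythroid transcription factor, and Ermap, a red cell membrane protein, differed by -0.91 and -1.16 (adjusted p = 0.0403 and 0.0460); both lie on chromosome 4, at 443 and 347 genes from Necap2. These 6 calls lay near the threshold. Over 20 alternative settings, the call was lost in 10 for Car1, 12 for Epor, 13 for Tal1, 14 for Rhag, 14 for Ermap and 15 for Kel. Some of these settings use fewer arrays or covariates made from called genes. Klf1 and Tfrc, the transferrin receptor, had differences of -1.17 and -0.74 with adjusted p of 0.0537 and 0.0775, and Alas2, the erythroid enzyme that starts haem synthesis, -0.07 (adjusted p = 0.904). The erythroid list mean ran from 9.17 to 12.48 with a median of 10.84 on high-Necap2 arrays and from 10.61 to 12.45 with a median of 11.67 on low-Necap2 arrays, so the groups overlapped. In bulk spleen RNA, fewer cells of a type and less RNA per cell cannot be told apart.

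All 19 measured cell cycle genes had negative differences, with a median of -0.53, and 3 of them were called lower, beside 0.672% of 11166 named genes: Mcm7, of the replicative helicase, with a difference of -0.54, the replication clamp Pcna with -0.42 and the origin licensing factor Cdc6 with -0.82 (adjusted p from 0.0257 to 0.0396). Over 20 alternative settings, the call was lost in 8 for Mcm7, 9 for Pcna and 14 for Cdc6. None of 18 B cell, 7 NK cell, 14 macrophage, 13 neutrophil, 10 megakaryocyte, 10 plasma cell or 13 interferon response genes was called; the neutrophil median was -0.40 and the other medians lay between -0.04 and 0.09. The 23 measured pancreas genes all had positive differences with a median of 1.06, and none was called. Their list mean ran from 5.60 to 15.03 with a median of 10.79 on high-Necap2 arrays and from 5.63 to 15.14 with a median of 7.94 on low-Necap2 arrays. With the pancreas list mean as a covariate the calls numbered 65 on chromosome 4 and 313 elsewhere.

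**Figure D5:**
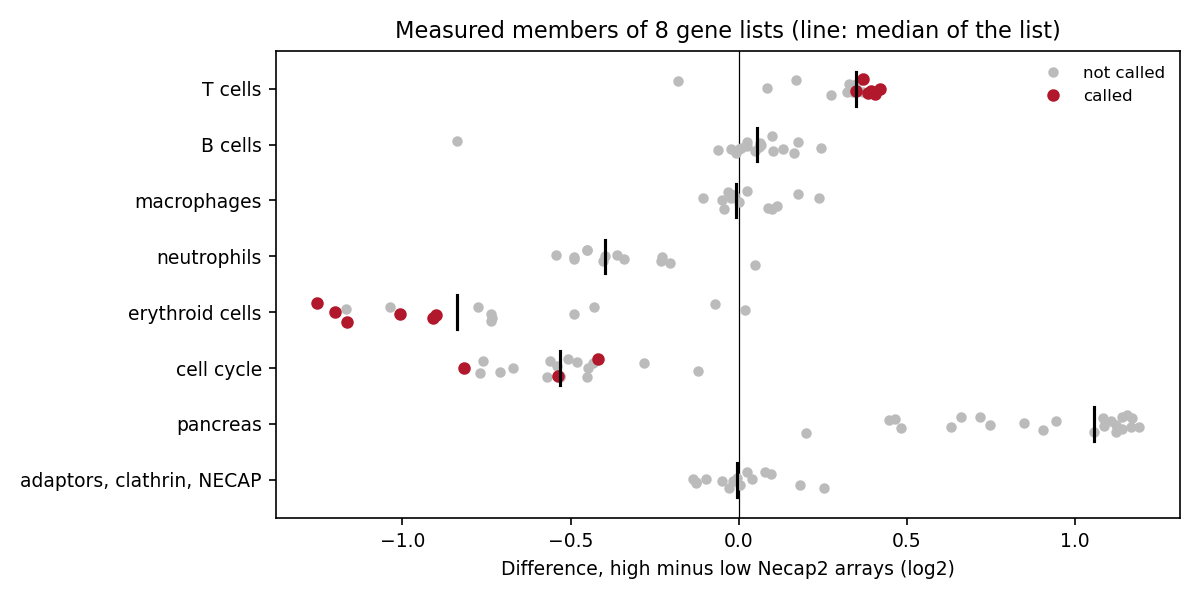
Difference between high-Necap2 and low-Necap2 arrays (log2, x axis) for the measured members of 8 gene lists, 1 point per gene, called genes in red, the list median as a black line. Medians lie at 0.35 for T cells, -0.84 for erythroid cells and -0.53 for cell cycle genes, at -0.01 for the adaptor list, and at 1.06 for pancreas genes, none of which was called.

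The calls on other chromosomes changed with the erythroid, cell cycle and T cell list means as covariates and with single arrays. Those on chromosome 4 did so less. Each of these list means includes called genes and differs between the groups, so part of the loss of calls is built in. With the mean of the erythroid list as a covariate, 16 of the 41 chromosome 4 calls and 1 of the 109 calls elsewhere were still called; with the cell cycle list mean 16 and 1, and with the T cell list mean 12 and 0. With the H2-Ab1 level as a covariate 21 and 10 were still called. All 41 and all 109 probes kept the sign of their difference under each of these 4 covariates. Of the 109, however, only 67 with the erythroid, 63 with the cell cycle and 90 with the T cell list mean still had an unadjusted p under 0.05. Leaving out 1 array at a time, 24 of the 41 chromosome 4 calls and 33 of the 109 calls elsewhere were made in all 38 fits. The number of calls elsewhere ran from 36 without BXD12 to 559 without BXD24, the high-Necap2 array with the highest erythroid list mean, and was 384 without BXD65, the low-Necap2 array with the lowest. What part cell composition has in the differences elsewhere was not tested, and covariates made from called genes cannot decide it.

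Within the 19 strains numbered up to 42, 34 probes were called, 19 of them on chromosome 4, and within the 19 later strains 3 probes, 2 of them on chromosome 4. Casp9 was called in both, with differences of 3.36 (adjusted p = 3.03e-13) and 2.81 (adjusted p = 4.45e-04). A limma test of whether the difference between high-Necap2 and low-Necap2 arrays itself changed between early and later strains called 0 of 17582 probes, with 1080 at an unadjusted p under 0.05. The early strains held 8 high-Necap2 and 11 low-Necap2 arrays and the later strains 12 and 7, so the test could miss sizeable changes. Mul1 differed by 2.80 in early and 1.33 in later strains, Pla2g2d by 2.45 and 1.26, and Agtrap by 2.02 and 2.27. BXD50, BXD51, BXD61, BXD73 and BXD98, the strains at the opposite level for Mul1 and Pla2g2d, are all later strains.

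Lymphocyte traits measured by flow cytometry were compared over 34 strains present in the phenotype table as well as on the arrays; the tissue that was stained is not named in the labels. The share of CD3+ T cells among lymphocytes was 33.3 ± 11.8% in 19 high-Necap2 strains and 32.97 ± 8.73% in 15 low-Necap2 strains (SD), a difference of 0.318 ± 3.53 percentage points (SE; two-sided permutation test with 100000 resamples, p = 0.932). The share of CD79+ B cells was 59.3 ± 12.3% and 58.9 ± 8.42% (permutation p = 0.925), and that of CD8+ cells 13.03 ± 6.01% and 12.2 ± 3.58% (permutation p = 0.653). The natural log of the T to B cell ratio was -0.65 ± 0.62 in high-Necap2 strains and -0.62 ± 0.45 in low-Necap2 strains, that of the CD4 to CD8 ratio 0.46 ± 0.33 and 0.50 ± 0.24, and that of the median class II level on B cells 3.65 ± 0.28 and 3.66 ± 0.32 (permutation p from 0.739 to 0.885). The adjusted p over the 6 traits was 0.932 for each. No difference in the CD3+ share was found at this precision, which leaves room for a difference of several percentage points either way. That share is a percent of lymphocytes in a tissue not named, while the T cell transcripts were measured in RNA of the whole spleen. Whether the T cell transcripts higher on high-Necap2 arrays go with more T cells in the spleen was therefore not tested.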

How the data were processed

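The arrays were Illumina Mouse-6 v1.1, with 1 pool of spleen RNA for each of 38 strains. What the authors deposited first are intensity values averaged over beads and left without normalization, per the file headers, each with a p-value of detection. What the authors deposited second are processed values that look like log2 values and were made with lumi according to the submitters' processing notes, by a transformation that stays unknown here. Cell shares in the phenotype table the authors deposited are percent of lymphocytes, and 3 further traits are natural log values, per the labels. The CD4+ share was set aside because an entry lies above 100, which leaves 1 column of per-strain values unused.

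The deposited detection p-values do not follow intensity closely, so they were replaced, array by array, with running medians taken along the order of intensity. Background was corrected and arrays were quantile-normalized with neqc (limma 3.58.1 in R 4.3.3, offset 16). Of 34492 probes, 17583 had a smoothed detection p under 0.01 on at least 3 arrays, and the Necap2 probe was left out of the test. Differences are high-Necap2 minus low-Necap2 arrays from lmFit and eBayes, and every adjusted p from limma is adjusted by the Benjamini-Hochberg method over 17582 probes. On simulated data with the same probes and groups the fit was checked for recovery of known differences. In the platform annotation 20256 probes had 1 symbol, 9 had several and 14227 had none; 20213 were matched by gene ID to RefSeq genes (GRCm38.p6), which was used for names, chromosomes and gene order only, since the files name no build. List values use the probe of highest mean per gene. Signals near background limit the size of differences, and the number of strains limits the precision.

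The split, the gene lists and the rule for named genes were chosen with earlier results of these data known. Named were, by rule, the called genes of smallest adjusted p on chromosome 4 (20 genes) and elsewhere (12 genes), the 6 nearest measured genes on each side, genes that correlate best with Necap2, the adaptor list, called list members and chromosome 4 genes with 2 levels. Alternatives covered background, values, filter, threshold, covariates, samples and the split; covariates from the erythroid, cell cycle and T cell lists, strain subsets and the omission of single arrays were added after seeing the data.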

Additional observations from a re-analysis of the deposited data

How the results depend on the processing

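Counts are given for all probes, chromosome 4 and other chromosomes, beside 208, 41 and 109. Counts stayed within 1.5 times of these without background correction, with the authors' processed values, with only probes detected on every array, with sex as a covariate, without BXD98 and with the split from the authors' values, which placed all arrays alike. With the detection p-values as deposited, 72 were called on other chromosomes. The counts were 87, 24 and 36 with no filter on dim probes, 34, 16 and 7 at an adjusted p under 0.01, and 102, 27 and 38 on arrays labelled male. With a covariate they were 504, 65 and 313 for the pancreas list, 50, 21 and 11 for the H2-Ab1 level, 75, 26 and 27 for the breeding epoch, and 371, 56 and 224 for the first principal component. Added after seeing the data, they were 24, 16 and 1 for the erythroid list, 27, 18 and 2 for the cell cycle list, and 17, 12 and 0 for the T cell list, where limma left 1071 probes at an unadjusted p under 0.05. Strains numbered up to 42 gave 34, 19 and 6, and later strains 3, 2 and 0 (1395 at an unadjusted p under 0.05); both use fewer arrays. Without BXD32 and BXD98, next to the gap, 126 probes were called, 36 of them on chromosome 4 and 51 elsewhere. Leaving out 1 array at a time gave 92 to 830 calls, 25 to 85 on chromosome 4 and 36 to 559 elsewhere. Chromosome 4 counts moved by more than 1.5 times without BXD12, BXD18, BXD24, BXD28, BXD48 or BXD65, and counts elsewhere without any of 21 arrays. Of the chromosome 4 probes with 2 levels, 30 became 15 with deposited detection p-values, and the 2 that matched at least 35 arrays became 1 there and 1 with a gap of 3 within-level SDs. No named gene changed direction while called, and the cause of the other changes was not tested. A split by a second Necap2 probe was not run, since only 1 probe is annotated to Necap2. No paired analysis was possible because each strain has 1 array and the groups share no replicate numbers. Undetected signals give only bounds, as for Padi2.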

Other observations

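Other called genes outside chromosome 4, chosen after their values were seen, are given here as single values, with no test of a theme. Of genes known from DNA replication and mitosis, the ligase Lig1 had a difference of -0.60, the polymerase alpha subunit Pola2 -0.33, the kinetochore gene Kntc1 -0.83, the spindle pole gene Aspm -0.87 and the midbody kinesin Kif23 -0.48 on the log2 scale (adjusted p from 0.0240 to 0.0354 by limma). The histone genes H2ac15 and H2ac12 had differences of -0.63 and -0.61 (adjusted p = 0.0146 and 0.0240); their near-identical copies may share probes. Ppox, an enzyme of haem synthesis, and Abcb6, a porphyrin transporter, differed by -0.74 and -0.73 (adjusted p = 0.0268 and 0.0364). Single genes higher on high-Necap2 arrays were the cytokines Il7 and Lta by 0.46 and 0.45, the T cell adaptor Sh2d1a by 0.36 and the adhesion molecule Icam2 by 0.25 (adjusted p from 0.0178 to 0.0354).

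Only 2 named genes outside chromosome 4 that were called also lay at 2 levels. The probe annotated to Fmr1, an RNA-binding protein gene of the X chromosome, ran from 6.29 to 7.98 with a median of 6.76 on high-Necap2 arrays and from 6.51 to 8.10 with a median of 7.85 on low-Necap2 arrays (difference -0.71, adjusted p = 0.0268 by limma). It lay on the opposite side from Necap2 on 30 of 38 arrays, and its 8 exceptions were the 6 strains of Fv1, Agtrap and Draxin together with BXD43 and BXD62. Osbp, an oxysterol-binding protein gene of chromosome 19, had medians of 5.46 on high-Necap2 arrays and 8.35 on low-Necap2 arrays (difference -1.61, adjusted p = 0.0388), with 10 arrays off the Necap2 side. Where these probes bind was not tested.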
